A study of Mus musculus with 12 samples.

Results

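The effect of macrophage co-culture on liver cells was measured while iron was present. In the RAW_FAC group, a mouse liver cell line, BNL CL.2, was kept for 24 h with RAW 264.7 cells, a mouse macrophage line, and 100 micromolar ferric ammonium citrate (FAC), a soluble iron salt. In the FAC group the same liver cells received the same dose of iron for the same time without macrophages. The comparison used the 6 of 12 Affymetrix arrays that carry these titles, 3 per group, and all 18194 genes that could be read from a probe set naming no other gene, each from its brightest one. The other 6 arrays were the same contrast without iron, RAW (macrophages) and alone (neither macrophages nor iron), and served as a second reading of the macrophage effect. RAW 264.7 cells sat in a culture insert and, by the treatment description, wells without them had further BNL CL.2 cells in the insert. Both groups thus carry the iron, both cell types are established lines, and the labels do not say whether the replicates were separate cultures, so the p-values speak of the spread among these arrays alone, which may be technical.

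Macrophages can act on hepatocytes through secreted factors. Type I interferons bind a receptor on nearly every cell and activate a complex of STAT proteins with IRF9, which binds interferon-response elements in the promoters of antiviral genes. Tumour necrosis factor and interleukin-1 act through NF-kB, which drives chemokine genes and its own inhibitors, and interleukin-6 acts through STAT3 on acute phase genes and on hepcidin, the hormone that limits iron export.

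All values are log2 signals, so a difference of 1 is a 2-fold difference, and differences are RAW_FAC minus FAC with the standard error (SE) of a linear model fitted to the 12 arrays with limma. The value table ran from 2.42 to 14.6 with array medians of 5.63 to 5.68. Tfrc, the transferrin receptor that iron-loaded cells lower, read 12.31, 12.18 and 11.55 in RAW_FAC and 12.35, 12.14 and 11.46 in FAC, and between 13.07 and 13.40 in the 6 arrays without iron. Of the hepatocyte markers, Hnf4a (10.22 to 10.57 in RAW_FAC, 10.40 to 10.54 in FAC) and Apob (11.29 to 12.38 and 11.24 to 12.18) gave clear signals, whereas Alb, the albumin gene, read 5.02 to 5.32 and 5.21 to 5.38. Of the 11 measured hepatocyte markers, 8 had a mean signal below the median gene mean of 6.82, and Apob had the highest. Of other cell types, the biliary marker Krt19 averaged 13.32 and the fibroblast marker Vim 14.14. Below that median were also 3 of 5 biliary markers and 8 of 9 stellate and fibroblast markers. Macrophage markers in the liver cell RNA averaged 5.05 to 5.08 over 20 genes in RAW_FAC and 5.01 to 5.05 in FAC, a difference of 0.03 (two-sided exact permutation p = 0.3, where 0.1 is the smallest that 3 arrays against 3 allow). Of the 20 markers 12 had a difference above 0. Lyz2 read 5.31 to 5.42 in RAW_FAC and 5.07 to 5.42 in FAC, and Cd68 5.45 to 5.77 and 5.36 to 5.86. In such bulk samples fewer cells of a type and less RNA per cell cannot be told apart, and the part of macrophage RNA in the differences below was not tested. The gap between 3' and 5' probe sets of the Gapdh and beta-actin controls, a sign of RNA degradation, differed by -0.006 (exact permutation p = 1).

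With iron present, the genes that stood highest in RAW_FAC over FAC were interferon-inducible ones, followed by chemokine and NF-kB genes. The counts of both kinds changed when single arrays were left out, as given below. Xaf1, Rtp4, Usp18, Irf9, Mndal and Ddx58 differed by 1.16 to 2.70, which is 2.24-fold to 6.51-fold, and were the 6 genes with a difference of at least 1 (0.033%). A difference of at least 0.5 was reached upward by 38 genes (0.209% of those tested) and downward by 2 (0.011%), which were singled out after their values were seen. The lower count was 11 without RAW_FAC replicate 1 or 2, 12 without FAC replicate 1, 4 without FAC replicate 2 or 3 and 0 without RAW_FAC replicate 3. Of the 38, 20 were on 3 lists of interferon genes, 6 on lists of chemokines, cytokines or NF-kB genes, and 8 on no list (Cxcl3, Eps8l3, Ifi202b, Lgals9, Parp12, Samd9l, Trim12c and Trim14). In 35 of the 38 the value was higher in RAW_FAC in 3 of 3 pairs of arrays with the same replicate number, against 16.2% of all genes. In 22 all 3 RAW_FAC arrays lay above all 3 FAC arrays, against 3.63% of all genes; these genes were picked for their size, so neither share is a test.

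No gene passed at an adjusted p under 0.05 in this contrast. In limma without a replicate block 0 of 18194 genes passed in either direction (0%), with a smallest adjusted p of 0.265 for Irf9 and 574 genes at an unadjusted p under 0.05, 315 of them higher (1.73%) and 259 lower (1.42%), where 5% of the genes tested would be 909.7. With the replicate number as a block the count was again 0, with a smallest adjusted p of 0.0661 for Cxcl1 and 1020 genes at an unadjusted p under 0.05, 581 higher (3.19%) and 439 lower (2.41%). With 1 array left out, 3 genes passed with the block without RAW_FAC replicate 1, and only Irf9 passed without RAW replicate 1 and no block; 0 passed without each of the other 10 arrays.

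The interferon signalling list of 17 measured genes had a median difference of 0.05, against 0.01 over all genes, and 13 of the 17 were above 0, as were 53.9% of all genes. That median was 0.13 without RAW_FAC replicate 1 and 0.09 without FAC replicate 2. The ligand genes Ifnb1 and Ifng differed by -0.03 ± 0.11 and 0.08 ± 0.13. The receptor genes Ifnar1, Ifnar2, Ifngr1 and Ifngr2 differed by 0.01, 0.07, 0.01 and 0.04, and the receptor kinases Jak1, Jak2 and Tyk2 by -0.04, 0.01 and -0.01.

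Larger differences stood among the downstream transcription factors. Irf9, the subunit that brings the interferon-activated complex to DNA, read 8.25, 8.42 and 8.91 in RAW_FAC and 7.15, 7.20 and 6.74 in FAC. The lowest RAW_FAC array lay more than 1 unit above the highest FAC array, and the difference of 1.496 ± 0.22 had the smallest p without the block (adjusted p = 0.265, and 0.220 with the block, where Cxcl1 had the smallest). Irf7, which amplifies type I interferon production, read 5.31, 5.30 and 5.77 in RAW_FAC and 4.99, 5.08 and 4.82 in FAC, again without overlap, a difference of 0.50 ± 0.14. Stat2, the partner of IRF9, differed by 0.32 ± 0.17 and Irf1, an early interferon-induced factor, by 0.24 ± 0.09, each higher in 3 of 3 same-number pairs. Of the feedback inhibitors, Usp18, a protease that restrains signalling from the type I receptor, read 4.70, 5.65 and 7.02 in RAW_FAC and 4.06, 4.36 and 4.19 in FAC (1.58 ± 0.52), and Socs1 differed by 0.32 ± 0.10.

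The list of antiviral effectors that interferon induces had a median of 0.22 over 47 measured genes, 37 of them above 0. All 3 RAW_FAC arrays lay above all 3 FAC arrays in 19 of the 47 and below them in 1 (3.63% and 3.02% of all genes), and 14 were at least 0.5 higher. Dropping RAW_FAC replicate 3 gave 8 in place of 14, and dropping RAW_FAC replicate 1 gave 19; over all genes 0.209% differed by as much. At an unadjusted p under 0.05, 23 were higher and 0 lower without the block (1.73% and 1.42% of all genes), and 24 were higher and 2, Mx1 and Sp110, lower with it (3.19% and 2.41%). No member passed over all genes in either fit. Xaf1, a pro-apoptotic antagonist of the caspase inhibitor XIAP, read 7.66, 8.95 and 9.98 in RAW_FAC and 6.42, 6.19 and 5.88 in FAC, the largest difference measured (2.70 ± 0.59). Rtp4, a chaperone of membrane receptors, read 6.28, 8.01 and 9.07 in RAW_FAC and 5.14, 5.46 and 5.44 in FAC (2.44 ± 0.69). In both genes the FAC arrays sat close together, while the RAW_FAC arrays were spread out, with replicate 1 the lowest and replicate 3 the highest. Each has a second, dimmer probe set with no such difference: -0.12 for Xaf1 and -0.08 for Rtp4.

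The antiviral list also held RNA sensors, picked out here after their values were seen. Ddx58, which encodes the RNA sensor RIG-I, read 7.06, 7.80 and 8.30 in RAW_FAC and 6.50, 6.49 and 6.69 in FAC (1.16 ± 0.33; its other probe sets 0.10 and 0.90). Ifih1, which encodes the long-RNA sensor MDA5, read 7.43, 8.14 and 8.47 in RAW_FAC and 6.80, 7.25 and 7.10 in FAC (0.96 ± 0.26). Eif2ak2, the RNA-activated kinase PKR, had closely spaced arrays, at 9.50, 9.61 and 9.58 in RAW_FAC and 9.16, 9.13 and 8.88 in FAC, with 0.49 to 0.51 over 3 probe sets. The groups did not overlap in any of these 3 picked genes, where 3.63% of all genes had 3 arrays above 3. Dhx58, the third sensor of the family, differed by 0.09 ± 0.10.

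Further interferon-inducible genes, some of them on no list, were among the 38. Mndal, a nuclear protein of the interferon-inducible HIN family, read 6.29, 7.07 and 7.35 in RAW_FAC and 5.66, 5.70 and 5.37 in FAC, with differences of 1.33 and 1.57 in its 2 probe sets. Ifi202b and Ifi204 of the same family, whose probe sets may share targets with it, differed by 0.97 ± 0.38 and 0.58 ± 0.22. Trim21, a ubiquitin ligase and cytosolic antibody receptor, read 7.01, 7.27 and 7.54 in RAW_FAC and 6.68, 6.54 and 6.77 in FAC (0.61 ± 0.12; a second probe set 0.21). The ADP-ribosyltransferase genes Parp14, Parp9 and Parp12 differed by 0.96 ± 0.32, 0.74 ± 0.21 and 0.69 ± 0.21, without overlap between the groups, and a second probe set of Parp14 gave 0.07. Helz2, a helicase, Samd9l, an inhibitor of translation, and Trim14, an adaptor of antiviral signalling, differed by 0.87 ± 0.25, 0.74 ± 0.23 and 0.55 ± 0.15.

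Several textbook interferon targets in the same list stood near 0. Rsad2, Mx1, Oas2, Oasl2, Cmpk2 and Zbp1 differed by -0.06, -0.17, -0.08, -0.08, -0.03 and -0.07. In contrast to Oas2 and Oasl2, Oas1a on the same list was among the genes at least 0.5 higher. Isg15, Ifi44 and Oas1g of this list were not measured. Ifit1 rested on 1 array: it read 4.39, 4.95 and 6.40 in RAW_FAC and 4.52, 4.64 and 4.45 in FAC. Ifit2 and Ifit3 differed by 0.15 ± 0.12 and 0.04 ± 0.10. The RMA values carry no detection calls, so a low signal could not be told from a transcript that was not detected.

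**Figure D1:**
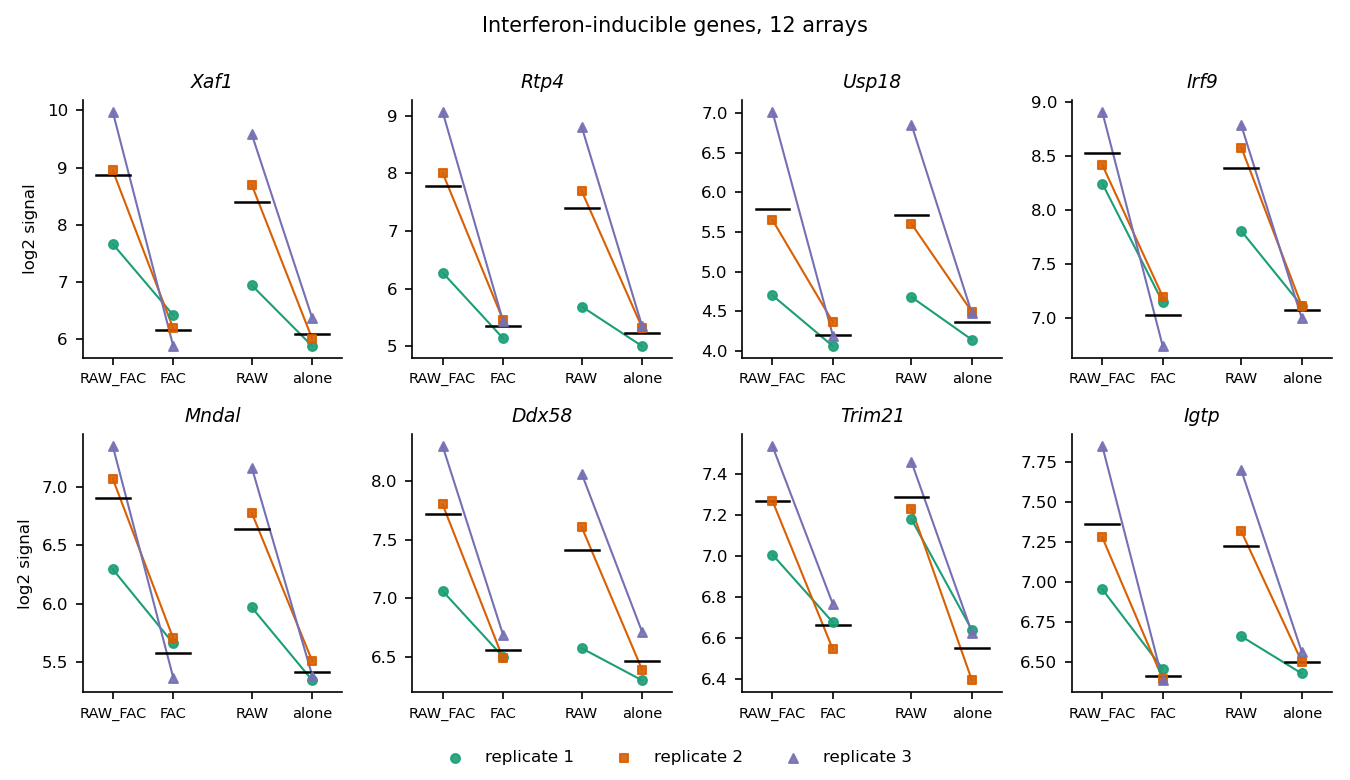
Log2 signal (y axis, a separate range per panel) of 8 interferon-inducible genes on each of the 12 arrays, grouped as RAW_FAC, FAC, RAW and alone. Points are arrays, coloured by replicate number and joined within a number, and black bars are means of 3 arrays. The cultures with macrophages lie above their partners in each panel, and replicate 3 has the highest and replicate 1 the lowest value with macrophages and iron.

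Promoter windows were searched for 3 motifs because interferon-response elements, gamma-activated sites and kappa B sites are the elements these pathways use. Windows of 300 bases, from 250 before to 50 after the annotated start, came from RefSeq (GRCm38.p6) and covered 29 of the 38 genes. The motifs, counted on either strand, were GAAA, any 2 bases and GAAA for the interferon-response type, TTC, any 3 bases and GAA for the gamma-activated type, and GGG, any 5 bases and CC for the kappa B type. The interferon-response type stood in 12 of these 29 genes (41.4%), against 3.44% of all 32851 windows and 3.63% of 14453 tested genes with a window. The gamma-activated type stood in 6 of 29 (20.7%), against 8.30% of windows, and the kappa B type in 21 of 29 (72.4%), against 50.8% of windows and 66.2% of the tested genes. In the antiviral list 14 of 35 genes with a window held the interferon-response type (40%) and in the GTPase list 7 of 8, against 2 of 14 chemokine and 0 of 14 NF-kB list genes. The kappa B type stood in 24 of 35 antiviral, 5 of 8 GTPase, 7 of 14 chemokine and 13 of 14 NF-kB list genes. For the gamma-activated type the counts were 8 of 35, 3 of 8, 1 of 14 and 4 of 14, against 8.57% of the tested genes. Some of these gene groups were chosen for their values, and a match is a description of the letters, not a site shown to be used.

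The 6 windows printed belong to the 6 genes with the largest differences among those with the smallest p or past the threshold below that hold the interferon-response type, a choice made after the values were seen. They are written along the gene, 5′ to 3′, with the matched bases in capitals.
Mndal (chr1:173880138-173880437, minus strand): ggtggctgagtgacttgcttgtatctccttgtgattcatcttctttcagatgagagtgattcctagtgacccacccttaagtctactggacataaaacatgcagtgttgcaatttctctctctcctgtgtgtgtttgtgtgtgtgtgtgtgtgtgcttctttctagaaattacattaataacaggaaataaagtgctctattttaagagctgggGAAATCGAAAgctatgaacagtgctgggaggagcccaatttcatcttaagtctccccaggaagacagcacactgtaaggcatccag
Ddx58 (chr4:40239776-40240075, minus strand): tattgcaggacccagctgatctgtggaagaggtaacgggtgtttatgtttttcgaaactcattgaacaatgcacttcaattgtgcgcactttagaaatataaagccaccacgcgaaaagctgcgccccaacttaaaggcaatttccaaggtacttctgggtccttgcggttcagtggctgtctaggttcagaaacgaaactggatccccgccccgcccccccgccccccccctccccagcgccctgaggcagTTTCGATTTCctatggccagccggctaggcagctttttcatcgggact
Ifih1 (chr2:62646206-62646505, minus strand): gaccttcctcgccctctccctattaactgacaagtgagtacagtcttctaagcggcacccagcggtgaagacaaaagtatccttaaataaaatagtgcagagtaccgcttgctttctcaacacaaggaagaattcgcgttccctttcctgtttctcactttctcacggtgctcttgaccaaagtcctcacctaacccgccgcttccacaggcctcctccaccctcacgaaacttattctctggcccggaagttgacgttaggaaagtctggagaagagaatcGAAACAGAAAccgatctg
Igtp (chr11:58199306-58199605, plus strand): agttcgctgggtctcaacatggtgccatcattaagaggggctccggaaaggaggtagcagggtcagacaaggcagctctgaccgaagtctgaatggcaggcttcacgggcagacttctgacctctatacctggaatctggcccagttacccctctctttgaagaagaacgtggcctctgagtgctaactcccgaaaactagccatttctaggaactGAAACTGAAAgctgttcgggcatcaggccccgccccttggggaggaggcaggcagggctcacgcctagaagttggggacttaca
Irgm1 (chr11:48871371-48871670, minus strand): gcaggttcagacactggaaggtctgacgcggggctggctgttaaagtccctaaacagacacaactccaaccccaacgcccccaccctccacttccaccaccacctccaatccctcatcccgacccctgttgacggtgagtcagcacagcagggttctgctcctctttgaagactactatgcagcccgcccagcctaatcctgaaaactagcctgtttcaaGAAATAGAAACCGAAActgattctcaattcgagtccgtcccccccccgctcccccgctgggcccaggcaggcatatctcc
Trim21 (chr7:102565433-102565732, minus strand): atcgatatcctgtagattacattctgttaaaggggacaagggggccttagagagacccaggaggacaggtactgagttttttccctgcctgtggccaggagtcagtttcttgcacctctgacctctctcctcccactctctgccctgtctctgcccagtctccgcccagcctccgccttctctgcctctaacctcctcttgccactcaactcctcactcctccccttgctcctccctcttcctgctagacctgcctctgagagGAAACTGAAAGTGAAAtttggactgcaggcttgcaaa

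The matches lay close to the annotated start. They began 36 bases before it in Mndal, 34 in Igtp and 30 and 24 in Irgm1, and 2 bases after it in Ddx58, 32 in Ifih1 and 13 and 19 in Trim21, where the 2 matches overlap as they do in Irgm1. Igtp also held the gamma-activated type 45 bases before the start. A second annotated start of Mndal has a match of its own. The windows of Xaf1 and Irf9 held the kappa B type but no match to the interferon-response type, which says only that these letters are not in those windows.

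**Figure D2:**
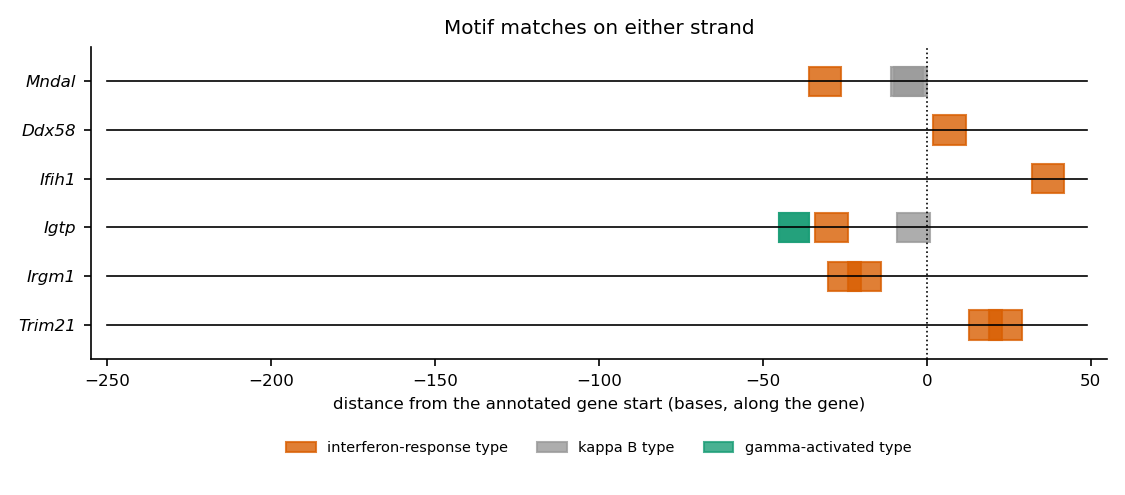
Positions of motif matches on either strand in 6 promoter windows, with the distance from the annotated start in bases on the x axis and 1 gene per line. Orange boxes mark the interferon-response type, green the gamma-activated type and grey the kappa B type; the orange boxes lie between 36 bases before and 41 bases after the start.

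The interferon-induced GTPases, which attack the membranes around intracellular pathogens, had a median of 0.22 over 10 measured genes with 7 above 0, against 53.9% of all genes. Igtp read 6.95, 7.28 and 7.85 in RAW_FAC and 6.46, 6.39 and 6.38 in FAC (0.95 ± 0.23), and Irgm1 read 10.65, 10.81 and 11.21 in RAW_FAC and 10.28, 10.14 and 10.26 in FAC (0.66 ± 0.16). Both were without overlap, the only 2 of the 10, against 3.63% of all genes with 3 arrays above 3. Irgm2 differed by 0.79 ± 0.30 with 1 array overlapping. The guanylate-binding protein genes were mixed, at 0.34 ± 0.13 for Gbp3, 0.18 ± 0.13 for Gbp6, 0.09 ± 0.13 for Gbp2 and -0.11 ± 0.09 for Gbp7. The list median was 0.37 without RAW_FAC replicate 1, 0.10 without RAW_FAC replicate 3 and 0.13 without FAC replicate 1.

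Genes of MHC class I presentation, which display peptides to T cells, had a median of 0.18, with 12 of 14 above 0 and 9 higher in 3 of 3 same-number pairs. Over all genes these shares were 53.9% and 16.2%. All 3 RAW_FAC arrays lay above all 3 FAC arrays in 1 of the 14, against 3.63% of all genes. At an unadjusted p under 0.05, 2 were higher without the block (1.73% of all genes) and 6 with it (3.19%), and 0 lower in either fit (1.42% and 2.41%). Tapbp and Tap1, which load and transport peptides, differed by 0.37 ± 0.20 and 0.32 ± 0.15, the heavy chain gene H2-K1 by 0.33 ± 0.18 and the light chain gene B2m by 0.26 ± 0.12. None passed over all genes, and the median was 0.34 without RAW_FAC replicate 1. The immunoproteasome subunits Psmb8, Psmb9 and Psmb10 differed by -0.02, 0.11 and 0.16, and the constitutive proteasome had a median of 0.01 with 9 of 14 above 0. MHC class II genes had a median of -0.08 with 0 of 6 above 0, led by H2-Eb1 at -0.15 ± 0.07 and H2-Aa at -0.14 ± 0.07.

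Chemokines, the attractants of leukocytes, had a median of 0.14 over 21 genes, 16 of them above 0, against 53.9% of all genes. The groups separated in 0 of the 21, yet 9 were higher in 3 of 3 same-number pairs, against 16.2% of all genes. A difference of at least 0.5 upward was reached by 4, against 0.209% of all genes. That count was 1 without RAW_FAC replicate 2, 2 without FAC replicate 1, and 6 without RAW_FAC replicate 1 or FAC replicate 2. Ccl2, the monocyte attractant, read 11.15, 12.64 and 12.79 in RAW_FAC and 10.59, 11.64 and 11.65 in FAC. Replicate 1 was low in both groups, so that the lowest RAW_FAC array lay below 2 FAC arrays, and the 3 same-number differences were 0.56, 1.00 and 1.13 (mean 0.90 ± 0.51). Ccl7, a related monocyte attractant, read 6.44, 8.04 and 7.60 in RAW_FAC and 5.99, 6.95 and 6.78 in FAC, with same-number differences of 0.45, 1.09 and 0.82.

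The same layout held for neutrophil attractants. Cxcl1 read 11.55, 13.16 and 12.85 in RAW_FAC and 11.08, 12.70 and 12.39 in FAC, with same-number differences of 0.48, 0.46 and 0.46. Its mean difference of 0.47 had an SE of 0.54 without the block, and with the block it had the smallest adjusted p of all genes, 0.0661. Cxcl2 differed by 0.57 ± 0.28, Cxcl3 by 0.88 ± 0.64 with 1 of 3 pairs reversed, and Ccl20, which attracts lymphocytes and dendritic cells, by 0.60 ± 0.68. Without FAC replicate 1 the unblocked differences of Cxcl1 and Ccl20 were -0.024 and -0.0039; that fit sets RAW_FAC replicates 1 to 3 against FAC replicates 2 and 3. Interferon-gamma type chemokines differed little, at 0.14 ± 0.12 for Cxcl10 and 0.14 ± 0.10 for Cxcl9, and Ccl5 at -0.40 ± 0.46 was lower in 2 of 3 pairs.

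**Figure D3:**
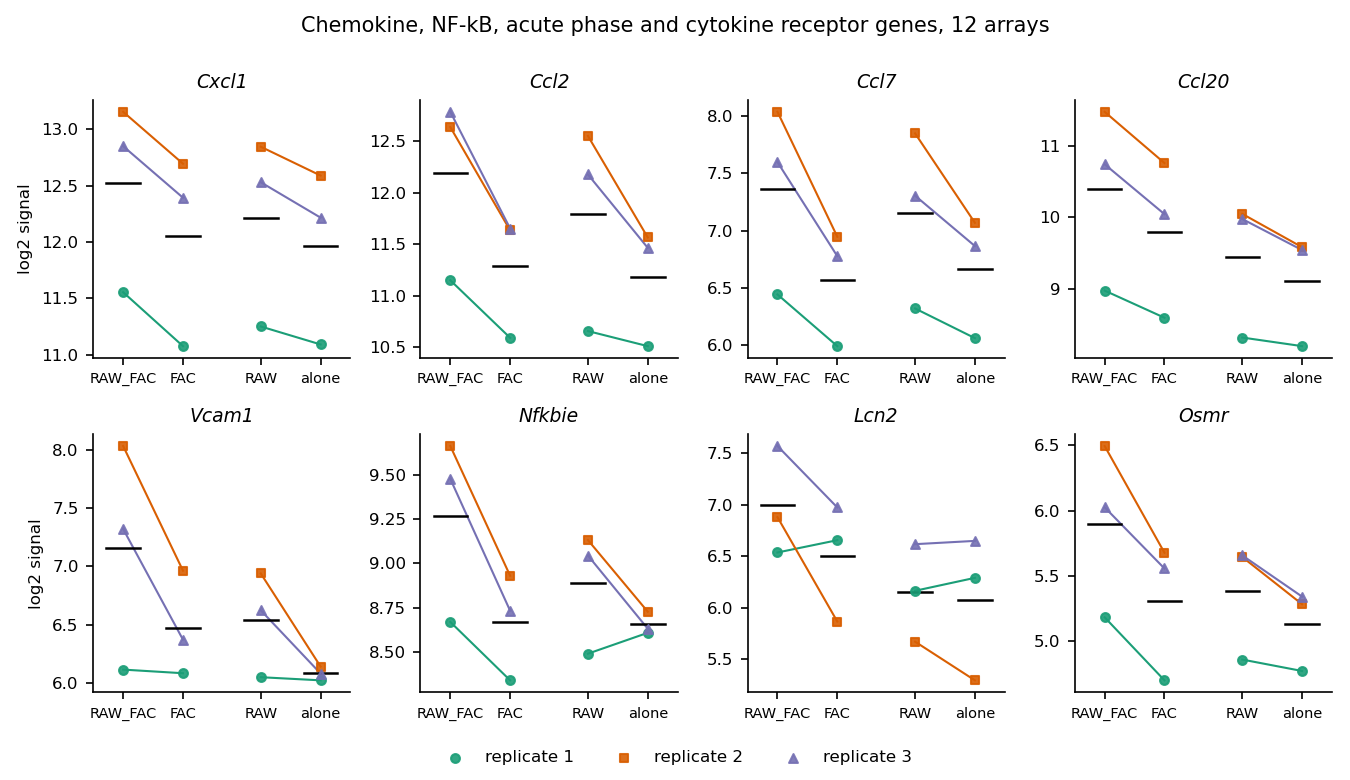
Log2 signal (y axis, a separate range per panel) of 8 chemokine, NF-kB, acute phase and cytokine receptor genes on each of the 12 arrays, drawn with replicate numbers joined and black bars as means of 3 arrays. In Cxcl1, Ccl2, Ccl7, Ccl20 and Osmr, replicate 1 is the lowest array of each group and groups overlap, while the joined lines slope the same way.

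NF-kB feedback and adhesion genes had a median of 0.18, with 16 of 18 above 0 and 13 higher in 3 of 3 same-number pairs, against 16.2% of all genes. All 3 RAW_FAC arrays lay above all 3 FAC arrays in 0 of the 18, against 3.63% of all genes. At an unadjusted p under 0.05 in limma, 3 were higher without the block and 9 with it (1.73% and 3.19% of all genes). A difference of at least 0.5 upward was reached by 2, against 0.209% of all genes. That count was 5 without RAW_FAC replicate 1 and 0 without RAW_FAC replicate 2 or FAC replicate 1. Nfkbie, an inhibitor of NF-kB, read 8.67, 9.66 and 9.48 in RAW_FAC and 8.34, 8.93 and 8.73 in FAC (0.60 ± 0.23, and 0.62 in a second probe set). Vcam1, an adhesion molecule for leukocytes, read 6.12, 8.03 and 7.32 in RAW_FAC and 6.08, 6.96 and 6.37 in FAC (0.68 ± 0.38), with almost no difference in replicate 1 and 0.09 and 0.17 in its other probe sets. The NF-kB subunits Relb and Nfkb2 differed by 0.44 ± 0.22 and 0.37 ± 0.18, and the inhibitors Tnfaip3 and Nfkbia by 0.37 ± 0.16 and 0.29 ± 0.14. Icam1 differed by 0.16 ± 0.11.

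Of the cytokine genes, 11 of 20 were above 0 (median 0.03), 2 were higher in 3 of 3 pairs (10%, against 16.2% of all genes) and 3 lower in 3 of 3. Lif and Csf1, which act on the acute phase response and on macrophages, differed by 0.43 ± 0.15 and 0.40 ± 0.23 and were the 2 higher in 3 of 3 pairs, while Il33, an alarmin, differed by -0.33 ± 0.12 and was lower in 3 of 3, as were 11.4% of all genes. Il6 and Tnf each differed by 0.04. Pattern recognition receptors had a median of 0.02, with Tlr2 at 0.31 ± 0.21 and Tlr3 at 0.23 ± 0.11. Cell death and inflammasome genes had a median of 0.13 with 9 of 12 above 0, led by Ripk3 at 0.22 ± 0.09; that median was 0.20 without RAW_FAC replicate 1, 0.06 without RAW_FAC replicate 3 and 0.08 without FAC replicate 1. Among matrix proteases, Mmp3, Mmp10 and Mmp13 differed by 0.64 ± 0.45, 0.54 ± 0.43 and 0.49 ± 0.41, and the whole matrix list had a median of 0.01 over 23 genes.

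Acute phase and STAT3 genes had a median of 0.02, with 16 of 26 above 0. Lcn2, which binds iron-carrying siderophores, read 6.54, 6.88 and 7.57 in RAW_FAC and 6.65, 5.87 and 6.97 in FAC, with overlapping groups and 2 of 3 pairs higher (0.50 ± 0.37). Saa3, an acute phase apolipoprotein, read 6.50, 7.45 and 7.90 in RAW_FAC and 6.52, 6.71 and 7.30 in FAC (0.44 ± 0.32). Osmr, the oncostatin M receptor, differed by 0.59 ± 0.33 and was higher in 3 of 3 pairs, while its 2 other probe sets gave -0.03 and -0.17. Its difference was 0.28 without FAC replicate 1, 0.29 when RAW_FAC replicate 2 was dropped and 0.95 when RAW_FAC replicate 1 was. Complement genes had a median of 0.05 with 8 of 11 above 0, led by C1s1 at 0.50 ± 0.19, C1ra at 0.36 ± 0.36 and Cfb at 0.30 ± 0.14.

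The iron handling list had a median of 0.01 with 12 of 24 above 0. Tfrc differed by 0.04 ± 0.21, the ferritin heavy chain Fth1 by 0.03 ± 0.07, the iron exporter Slc40a1 by 0.03 ± 0.09 and Hamp, which encodes hepcidin, by -0.12 ± 0.07. In the BMP-SMAD pathway, through which hepatocytes set hepcidin, the median was -0.02 with 9 of 18 above 0. With the block 4 of the 18 were lower at an unadjusted p under 0.05, against 2.41% of all genes, and 0 higher; without it there were 0 in either direction. The 4 were Id1, Id2, Id3 and Smad6, none past the threshold over all genes, and Id1, Id3 and Smad6 were lower in pairs 2 and 3 but not in pair 1. The target genes Id2 and Id3 had the largest differences, -0.39 ± 0.22 and -0.29 ± 0.23; Id2 was lower in 3 of 3 pairs. Targets of NRF2, the antioxidant factor, had a median of -0.02 with 7 of 20 above 0, and Hmox1, which opens the heme ring, differed by 0.13 ± 0.30. Cholesterol synthesis, unfolded protein response and hypoxia lists had medians of -0.01, -0.01 and 0.01. The unfolded protein response median was 0.16 without RAW_FAC replicate 1 and 0.17 without FAC replicate 2, and -0.20 without RAW_FAC replicate 2 or FAC replicate 1, as far from 0 as the medians of the MHC class I and NF-kB lists. The other lists, among them cell cycle, p53 targets, immediate early genes and the remaining cell type markers, had medians from -0.05 for endothelial markers to 0.08 for metallothioneins and zinc transporters.

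**Figure D4:**
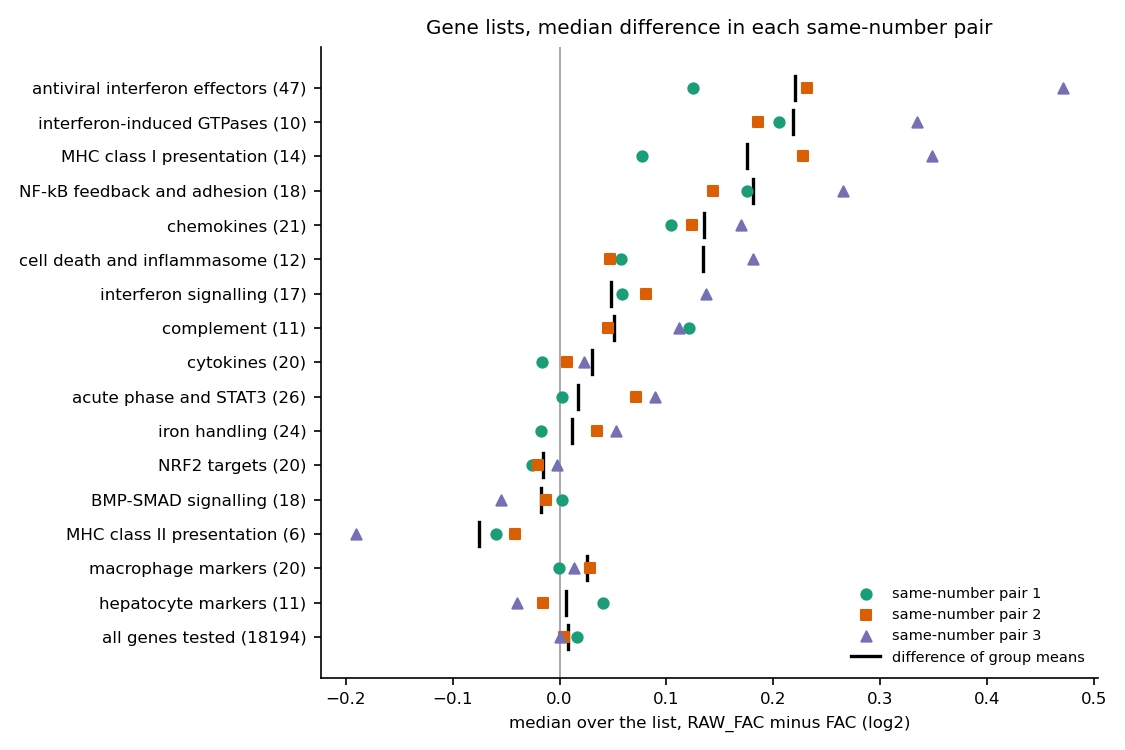
Median RAW_FAC minus FAC difference over each gene list (log2, x axis) with the number of measured genes in brackets; black bars use group means and coloured points each same-number pair. The antiviral, GTPase, MHC class I, NF-kB, chemokine, cell death, interferon signalling, complement, acute phase and STAT3 lists lie above 0 in 3 of 3 pairs, as do 12 of the 31 lists in all and the median of all genes, the antiviral list from 0.12 in pair 1 to 0.47 in pair 3.

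The size of the macrophage difference varied with the replicate number. Of the 38 genes, pair 3 had the largest difference in 30, pair 2 in 8 and pair 1 in 0, and pair 1 the smallest in 34; over all genes pair 3 was largest in 36.3%, pair 2 in 29.2% and pair 1 in 34.5%. Pair 3 was the largest in 20 of the 20 interferon list genes, whereas pair 2 was in 4 of the 6 chemokine, cytokine and NF-kB genes. The spread was larger in RAW_FAC than in FAC in 35 of the 38, against 56.6% of all genes. The 38 were picked for a high mean difference, which favours genes with single high RAW_FAC arrays and the pair with the most large differences. None of these shares is therefore a test. Each pair on its own had more genes at least 0.5 higher than lower, with 46 against 15 in pair 1, 86 against 33 in pair 2 and 191 against 94 in pair 3. The count of 38 rose to 80 with RAW_FAC replicate 1 dropped. It fell to 30 when replicate 2 of that group was dropped instead, and to 26 for replicate 3. For the FAC group, leaving out replicate 1, 2 or 3 gave counts of 37, 52 and 44. Of 24 genes refitted without each RAW_FAC or FAC array, 8 had an unblocked difference that moved by over 1.5 times. Without RAW_FAC replicate 1 the differences were 1.42 for Ccl2, 1.24 for Ccl7, 1.203 for Vcam1, 1.38 for Parp14 and 2.13 for Usp18. The lowest were 0.55 for Ccl2 without FAC replicate 1, 0.45 for Ccl7 and 0.24 for Vcam1 without RAW_FAC replicate 2, and 0.61 for Parp14 and 0.97 for Usp18 without RAW_FAC replicate 3. Osmr, Cxcl1 and Ccl20 were the others. What the replicate numbers stand for is not given in the labels.

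The 38 genes were also read where macrophages were added without iron. Of them, 37 were above 0 in RAW minus alone, against 49.8% of all genes, and 21 were at least 0.5 higher there, while 17 were not. These 21 are 55.3% of the 38 genes with iron and 87.5% of the 24 genes without iron (0.132% of those tested). The contrasts share no array, but residuals of same-number arrays correlated across groups, at 0.26 to 0.53 over 18 pairs. Whether the 2 contrasts are independent is therefore not known. The 38 genes had a median of 0.70 with iron and 0.58 without. Xaf1 read 6.94, 8.70 and 9.58 in RAW and 5.87, 5.999 and 6.36 in alone, and Irf9 read 7.81, 8.58 and 8.78 in RAW and 7.11, 7.11 and 6.997 in alone, with replicate 1 again the lowest and replicate 3 the highest array with macrophages. Across genes, which are not independent replicates, the 2 differences correlated at r = 0.27 over all genes and r = 0.94 over the 40 genes chosen for a difference of at least 0.5 with iron.

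**Figure D5:**
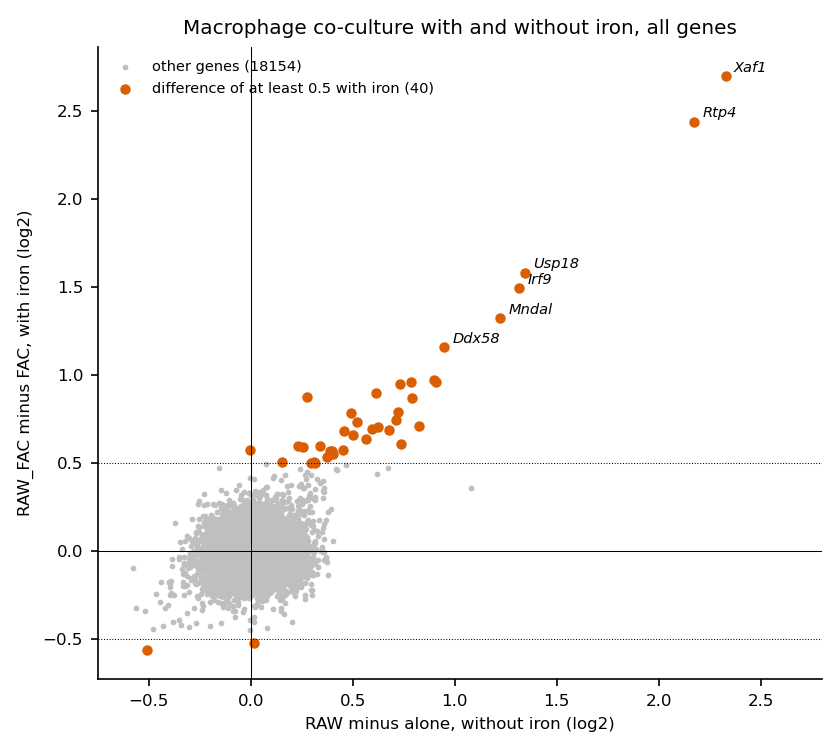
Difference RAW_FAC minus FAC (y axis, log2) against RAW minus alone (x axis, log2) for 18194 genes, with the 40 genes of at least 0.5 in either direction with iron in orange and dotted lines at 0.5 and -0.5. The 6 named genes lie at the upper right, and Eps8l3 is the 1 orange gene of the upper 38 that is not above 0 on the x axis.

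Whether the macrophage difference itself differed with iron was tested as an interaction, the difference with iron minus that without. In limma 0 of 18194 genes passed in either direction, without or with the block (smallest adjusted p 1.00 and 0.999), and 540 and 790 genes had an unadjusted p under 0.05 (0.923% higher and 2.04% lower without the block, 1.65% and 2.69% with it). The interaction was above 0 in 36 of the 38 genes, which were chosen for the difference with iron, and in 54.3% of all genes, and it reached 0.60 for Cxcl3, 0.58 for Eps8l3 and 0.37 for Nfkbie. Cxcl3 averaged 5.69 in RAW_FAC and 4.82 in FAC, against 5.03 in RAW and 4.75 in alone. The 5 genes with the smallest p were Nhlh2, Vwa2, Ing4, Etohd2 and H60c, at -0.54, -0.45, 0.54, -0.42 and 0.40. The genes at least 0.5 higher without iron but under 0.5 with it were Mycn, Rspo3 and Saa3. Mycn, a proto-oncogene transcription factor, read 8.87, 7.61 and 7.83 in RAW and 6.85, 7.07 and 7.14 in alone, against 7.24, 7.48 and 7.68 in RAW_FAC and 6.99, 7.03 and 7.30 in FAC.

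The mean of the macrophage differences with and without iron was then tested over all 12 arrays, a comparison added after no gene had passed in RAW_FAC against FAC. Irf9 rose by 1.41 ± 0.16 and Trim21 by 0.67 ± 0.09, the 2 genes past the threshold in limma without a block (0.011%; adjusted p = 0.0125 and 0.0349), and 0 fell; at an unadjusted p under 0.05, 425 genes were higher (2.34%) and 292 lower (1.6%). With the replicate block 10 genes rose (0.055%) and 0 fell, at adjusted p from 0.0160 to 0.0493, and 717 (3.94%) and 557 (3.06%) had an unadjusted p under 0.05. They were the interferon-inducible Irf9, Trim21, Ifih1, Mndal, Xaf1, Ddx58 and Trim14 and the chemokines Cxcl1, Ccl7 and Ccl2. Xaf1 rose by 2.52 ± 0.34, Mndal by 1.27 ± 0.16, Ccl2 by 0.76 ± 0.11 and Cxcl1 by 0.35 ± 0.04 (SE with the block). A block of replicate number within each iron condition left 0 genes in either direction, with adjusted p of 0.126 for Irf9 and 0.0834 for Trim21. Leaving out 1 array moved both counts. In the unblocked fit 1 of the 2 genes passed when replicate 2 or 3 of RAW_FAC, 1 or 2 of FAC or 3 of RAW was dropped. None passed when replicate 3 of FAC, 2 of RAW or any array of the alone group was dropped. Dropping replicate 1 of RAW_FAC gave 4 genes and dropping replicate 1 of RAW gave 12. With the block, dropping replicate 1 of RAW_FAC, FAC, RAW or alone gave 22, 15, 24 and 21 genes, dropping FAC replicate 3 gave 3, and dropping any of the remaining 7 arrays gave 0.

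Few genes were lower with macrophages and iron. Kcne2, a potassium channel subunit, read 5.61, 5.73 and 5.25 in RAW_FAC and 5.70, 6.24 and 6.35 in FAC (-0.56 ± 0.21, and -0.51 in RAW minus alone). Rpl27a, a ribosomal protein gene, rested on 1 array, with 8.01, 8.24 and 6.86 in RAW_FAC and 8.12, 8.20 and 8.36 in FAC, and its second probe set gave 0.05. The 10 lower genes with the smallest unadjusted p, none past the threshold, were 4932437C15Rik, BC023105, Etohd2, Tenm3, Il3, Nhlh2, Lca5l, Elfn1, Abcg5 and Myzap, with differences of -0.25 to -0.42. The 10 higher ones were Irf9, Trim21, Mndal, Eif2ak2, Xaf1, Cxcr5, Gm31981, Igtp, Irgm1 and Tmem130. Cxcr5, the receptor of CXCL13, read 4.29, 4.21 and 4.09 in RAW_FAC and 3.82, 3.90 and 3.63 in FAC, without overlap, and differed by 0.02 in RAW minus alone.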

How the data were processed

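RNA of BNL CL.2 cells was hybridised to 12 Affymetrix mouse arrays, 3 per group. The authors deposited log2 values, made by RMA with affy according to the submitters' processing notes (versions not stated there). Of 45101 probe sets, 34958 had 1 gene symbol, 932 several and 9211 none in the annotation used; the probe set with the highest mean was kept for each of 18194 genes. No further scaling was applied, and the number of arrays limits the precision.

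A mean per group was fitted in limma (version 3.58.1, R 4.3.3), with moderated two-sided tests, Benjamini-Hochberg adjustment over all genes and a threshold of 0.05. Groups and replicate numbers came from the titles. Residuals of the 18 same-number array pairs correlated at 0.26 to 0.53 and those of the 36 other pairs at -0.35 to -0.01, so the numbers were taken to pair the arrays and were also fitted as a block. Marker levels and RNA quality were compared with exact permutation tests. The fits were tested on simulated data.

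The comparison, the 31 gene lists, the rule for named genes and the motifs were chosen with earlier results of these data known. The rule named the largest changes past the threshold in either fit (0 genes), up to 3 members per list, 16 measured fixed genes, 5 genes of the interaction and 10 per direction with the smallest p; of 543 list entries 505 were measured. Genes with a difference of at least 0.5, and the mean over both iron conditions, were added after the values were seen. Alternatives were the block, array weights, subsets of arrays and probe sets, centring, quantile normalization, moderation with trend and robust, other thresholds and leaving out each array. Python 3.11.15 (pandas 2.3.3, numpy 2.4.6, matplotlib 3.10.9) made tables and plots. Some items are not reported here.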

Additional observations from a re-analysis of the deposited data

Results flagged for a closer look

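For 7 flagged genes every same-number pair, or array, moved one way with iron and the other way without it. How many of all 18194 genes did so was not counted, so the 7 do not show that such reversals are rare. With iron, 16.2% of all genes were higher and 11.4% lower in 3 of 3 same-number pairs. The interaction, RAW_FAC minus FAC less RAW minus alone, was -0.536 for Nhlh2, -0.45 for Vwa2, -0.4221 for Etohd2, -0.3223 for BC023105, 0.5356 for Ing4, 0.3002 for Dcn and 0.2473 for Plk1. No gene passed the test of this difference in limma (smallest adjusted p 1.00 without the block), so it is not shown for any of them. Vwa2 differed by -0.20 in RAW_FAC minus FAC and 0.25 in RAW minus alone, and Ing4 by 0.28 and -0.25.

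Probe sets with no gene symbol or several were outside the comparison. Of 10143 such probe sets, 8 were at least 0.5 higher in RAW_FAC with all 3 arrays above the 3 FAC arrays, and 0 were at least 0.5 lower with all 3 below. The highest difference among them was 1.86.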

How the results depend on the processing

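The count of genes lower in RAW_FAC and that of the interaction stayed 0 under each alternative run. The count of higher genes was 0 except for 1 with the replicate block at an adjusted p under 0.1 and, when 1 array was left out, a range of 0 to 3 (3 with the block without RAW_FAC replicate 1, 1 without RAW replicate 1). Replicate numbers paired the arrays, and the block changed no call in RAW_FAC against FAC at the threshold of 0.05. For the mean of both iron conditions the 2 higher genes became 10 with the block, 15 with the block at an adjusted p under 0.1, 0 with a block within iron condition, 1 with all probe sets tested and 1 with trend and robust, and ranged from 0 to 12 without and 0 to 24 with the block when 1 array was left out (22 without RAW_FAC replicate 1 and 21 without alone replicate 1); 0 to 4 were then lower. The macrophage marker difference was -0.0018 after median centring, which moved the median of all genes to -0.02. For 24 named genes the difference was recomputed under settings that keep the RAW and alone arrays, since leaving those out cannot change it: 543 of 545 values kept their direction and 2 reversed, both without FAC replicate 1. None of the 24 passed the threshold to begin with; Irf9 passed without RAW replicate 1, which alters the SE, and Trim21 with the block and without RAW_FAC replicate 1. Fits without 1 array ran from -0.0239 to 0.9486 for Cxcl1 and from -0.003943 to 1.311 for Ccl20. Depth has no counterpart here; the number of arrays, 3 a group, limits the precision, and signal over background is unknown because the values carry no detection calls.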
